A study of Mus musculus with 22 samples.

Results

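RNA of 39 genes that serve meiosis and the piRNA pathway in germ cells was measured in mouse embryonic stem cells (ESCs) treated with inhibitors of chromatin regulators. The genes were taken from the table by symbol, from a list of 40 names drawn up with earlier results of these data known. Of these, 39 had a row in the table of 18487 genes, and all 39 passed the filter on low values that left 17275 genes for testing. For Spo11, the enzyme that makes meiotic DNA breaks, no value is given here. The cells were the mouse ESC line E14, and every library came from this 1 line. Each of 10 compounds and a group labelled NC had 2 libraries, 22 in all. NC, the sole group without a compound in its label, was the reference. The labels give no dose and no length of exposure, so compounds were not compared at matched doses. Nothing in the labels says that the 2 libraries of a group came from separate cultures, so the p-values measure only the spread between these libraries.

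The compounds act at different points of chromatin regulation. Histone acetylation is the target of 4 of them, since Valproate keeps acetyl groups on histones by blocking deacetylases, Garcinol and CPTH2 block the acetyltransferases, and Bromosporine occupies the bromodomains through which acetylated lysine is read. Methylation is the target of another 4. Chaetocin acts on lysine methyltransferases, UNC0379 on SETD8 in particular, MS023 on arginine methyltransferases of type I, and DZNep on the hydrolase of S-adenosylhomocysteine, so that methylation falls broadly. IOX1 blocks 2-oxoglutarate oxygenases such as histone demethylases. The label OICR gives no full compound name.

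In meiosis, homologous chromosomes are cut, paired along the synaptonemal complex, recombined and separated. In male germ cells, PIWI proteins carry piRNAs, small RNAs that silence transposons, and Tudor-domain proteins and helicases help to make them. Genes of both kinds are held low outside the germline by DNA methylation and, in ESCs, by the Polycomb repressive complex 1.6, whose subunits E2F6 and MGA/MAX bind the letters TCCCGC and CACGTG (the E-box). ESCs nevertheless transcribe a number of germline genes at a measurable level.

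The promoters show what these genes share in sequence. RefSeq promoters (GRCm38.p6, 250 bases before to 50 after the start site, 45 promoters) matched 36 of the 39 genes by symbol. Piwil2, Tex11 and Tex15 had no entry. Both motifs were searched on both strands, and in these promoters no match of one overlapped a match of the other. The letters CACGTG stood in 17 of the 45 promoters (37.8%), against 9.27% of 15523 promoters of genes in the table and 7.15% of all 32851 RefSeq promoters. Counted per gene, 14 of 36 (38.9%) held the E-box in at least 1 promoter, against 10.9% of 12329 genes. TCCCGC stood in 37.8% of the members' promoters against 32% of those of the table's genes, and both motifs together in 20% against 3.38%. The median number of CpG dinucleotides in the 300 bases was 20, against 18. Of the 15 genes called with a compound below, 6 had an E-box upstream of the start, and their sites are shown with up to 20 bases on each side, followed by those of 3 germline genes described further on. Capitals mark the E-box, and each sequence runs 5′ to 3′ on the gene's strand.
Mael (chr1:166238942-166238987, minus strand): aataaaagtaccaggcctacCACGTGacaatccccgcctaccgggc
Tdrd1 (chr19:56826178-56826208, plus strand): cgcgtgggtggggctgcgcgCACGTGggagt
Tdrd9 (chr12:111971444-111971489, plus strand): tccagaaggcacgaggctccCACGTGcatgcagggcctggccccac
Mov10l1 (chr15:88982744-88982773, plus strand): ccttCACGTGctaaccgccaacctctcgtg
Taf7l (chrX:134476514-134476559, minus strand): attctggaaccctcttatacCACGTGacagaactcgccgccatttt
Brdt (chr5:107331096-107331141, plus strand): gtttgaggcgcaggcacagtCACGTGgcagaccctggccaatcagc
Ddx4 (chr13:112652314-112652359, minus strand): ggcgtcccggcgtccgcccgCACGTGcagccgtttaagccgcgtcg
Sycp3 (chr10:88459524-88459569, plus strand): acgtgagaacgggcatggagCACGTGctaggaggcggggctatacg
Slc25a31 (chr3:40708758-40708803, plus strand): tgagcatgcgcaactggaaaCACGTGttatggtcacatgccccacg
In Tdrd1 the first base of the E-box lay 11 bases before the start site of 1 promoter and 77 before that of another. A further Tdrd1 promoter held no E-box. The first base lay 29 bases before the start site in Ddx4, 43 in Sycp3 for the nearer of 2 sites, and 246 in Mov10l1. A match of letters is a description and does not show that a factor binds there.

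Values are normalised read counts, rounded by the authors, after a normalisation that gives every library the same distribution. Their depth is therefore not known, and no counting interval or detection limit was given. The 2 libraries of a group correlated at 0.939 to 0.958 over log2 values of all genes, and in no group were they identical. The 10 ESC markers (among them Pou5f1, Nanog and Sox2) summed to between 209156 and 307233 over the 22 libraries. Markers of mature germ cells were sparse, with a row for 1 of 10 spermatid markers and 2 of 10 oocyte markers. In bulk RNA, more cells of a type and more RNA per cell cannot be told apart.

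At rest the members differed widely. Per kilobase of the longest transcript, the mean NC level was 1910 for Sycp3, 1790 for Hormad1, 1650 for Dazl and 1370 for Tex19.1. It was 8.1 for Tdrd1, 5.45 for Mei1 and 2.87 for Tex101. In Sycp3 and Hormad1 these levels are uncertain. For Sycp3, 52.9% of the 31-base stretches of the transcript also occur in transcripts of other genes, mostly of Chpt1, which overlaps it on the opposite strand, and for Hormad1 42.5%, mostly of Gm15529. Whether counting used strand is not given in the sources used here. By the group means, Bromosporine was the group with the lowest value in 15 of the 39 genes. DZNep was the one with the highest in 13, MS023 in 11 and Valproate in 7. The same shares over all genes were not counted, so these counts are not shown to be particular to the 39.

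In the main fit, which ignores the replicate number, members were called with DZNep, Valproate and Bromosporine and with none of the other compounds. A fit with a term for that number, described under the processing, also called members with OICR (3), MS023 (2) and IOX1 (1). How many of all genes that fit called was not counted. A gene was called where limma's adjusted p, taken over all genes tested, was under 0.05 and the fold change over 2. With DZNep, 5 of 39 members rose (Syce1, Piwil2, Mael, Tdrd1 and Tex101) and 2 fell (Dmc1 and Tex14), while 5.27% of all genes rose and 6.14% fell. With Valproate, 3 rose (Rec8, Tdrd5 and Brdt) and 2 fell (Zcwpw1 and Tex14), with 2.73% and 2.55% of all genes. With Bromosporine none rose and 4 fell (Hormad2, Tdrd9, Mov10l1 and Taf7l), with 0.573% and 2.77% of all genes. In all, 15 members (38.5%) were called, where 15.8% of all genes were called with at least 1 of these 3 compounds. Of the 15, 14 were called with 1 compound and Tex14 with 2. With the fold threshold left out, limma's adjusted p was under 0.05 for 9 members higher and 3 lower with DZNep, 6 and 4 with Valproate, and 0 and 7 with Bromosporine. Over all genes the same shares, higher and lower, were 10.7% and 12.8% with DZNep, 5.13% and 5.18% with Valproate, and 1.61% and 3.79% with Bromosporine. Every contrast uses the same 2 NC libraries, so their values for a gene are not independent of each other.

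With the other 7 compounds limma called no member in the main fit. In either direction they called few genes of any kind, namely 0.973% with MS023, 0.388% with OICR, 0.116% with IOX1, 0.0174% with Chaetocin, 0.00579% with CPTH2, 0.00579% with Garcinol and 0% with UNC0379. At an unadjusted p under 0.05 the members numbered 11 with MS023, 9 with OICR, 9 with Chaetocin, 8 with IOX1, 5 with UNC0379 and 0 with CPTH2 and Garcinol. Those counts are 28.2%, 23.1%, 23.1%, 20.5% and 12.8% of the 39, beside 15%, 10.7%, 4.72%, 12.4% and 6.08% of all genes. With CPTH2 and Garcinol, 0.944% and 3.62% of all genes passed this level. The lowest adjusted p was 0.0188 with MS023 (Piwil2, 0.89 on the log2 scale) and 0.0379 with OICR (Sycp3, -0.62), both short of a fold of 2.

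**Figure D1:**
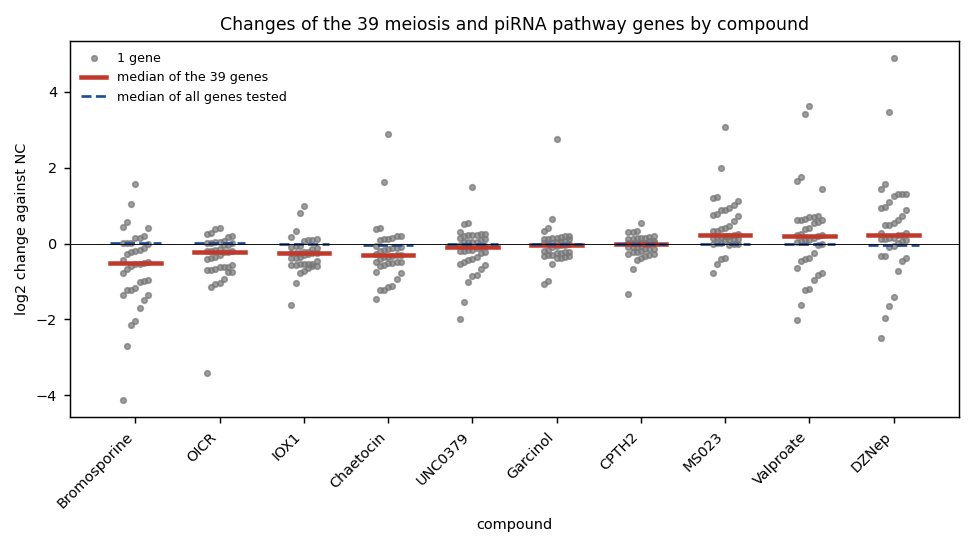
Log2 change against NC (y axis) of the 39 genes (grey points) for each of the 10 compounds (x axis), with the median of the 39 (red bar) and of all 17275 genes tested (blue dashed bar). The red bar lies lowest with Bromosporine, at -0.50, and above 0 with MS023, Valproate and DZNep.

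The medians moved both ways. The median log2 change of the 39 members was -0.50 with Bromosporine, -0.31 with Chaetocin, -0.26 with IOX1 and -0.21 with OICR, and 0.23 with DZNep, 0.21 with MS023 and 0.21 with Valproate. The median of all genes lay between -0.04 and 0.01 in these contrasts. With Bromosporine both libraries lay below both NC libraries in 21 of the 39 members, where 23% of all genes did. The same count was 19 with OICR (18.7% of all genes), 18 with Chaetocin (20%) and 16 with IOX1 (24.2%). Above both NC libraries lay 22 members with DZNep (26.5% of all genes), 19 with MS023 (21.8%) and 14 with Valproate (23%). With IOX1, 31 of the 39 changes were negative, and with MS023, 31 were positive, although the main fit called no member with either. These counts describe the 39 genes and were not tested as a set.

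**Figure D2:**
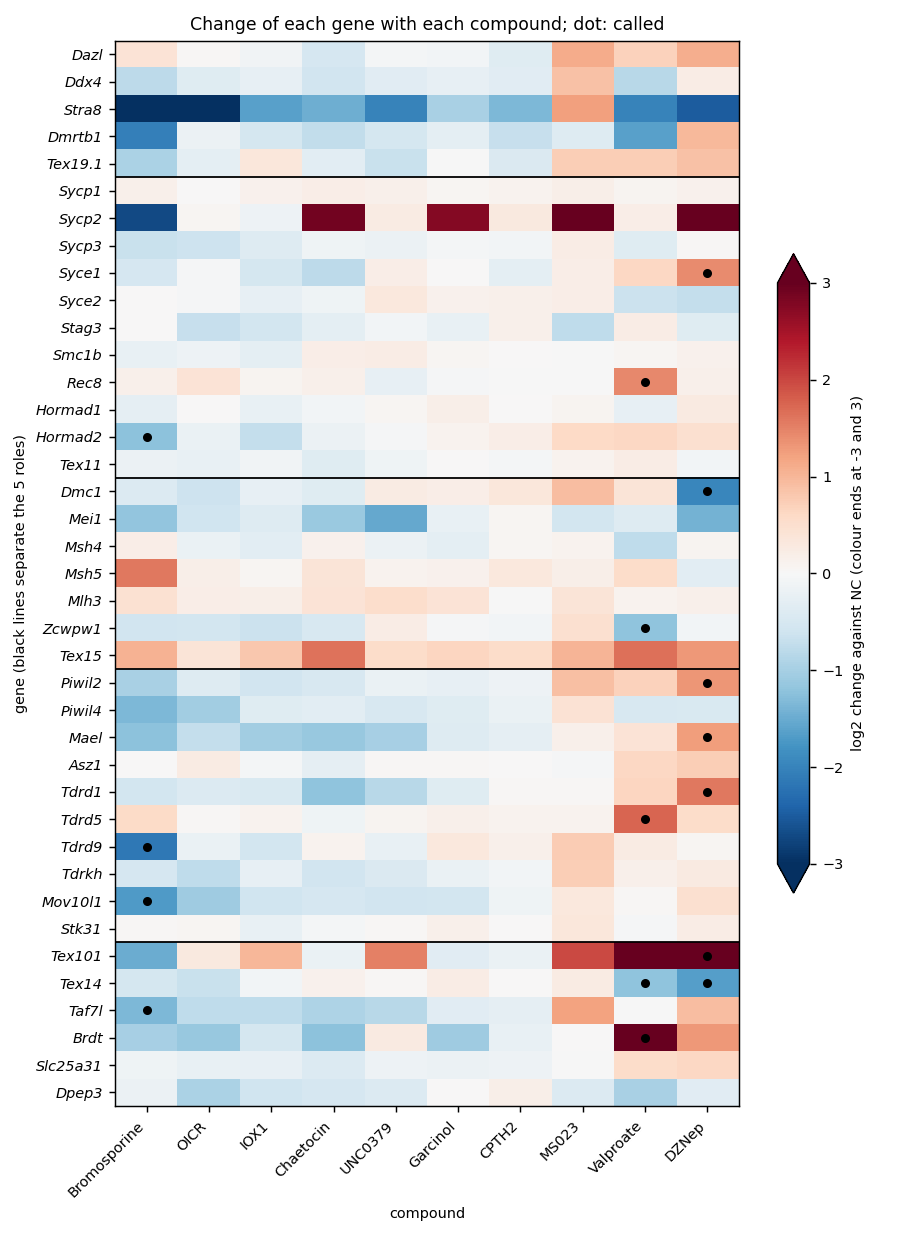
Log2 change against NC of each of the 39 genes (rows, in the order of the roles described in the text) with each compound (columns), on a colour scale from -3 to 3. Black dots mark the 16 changes called in the main fit, which fall in the columns of Bromosporine, Valproate and DZNep.

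The 5 genes of the early germ cell and RNA binding gave no call in the main fit, which ignores the replicate number. A limma fit with a term for that number, described under the processing, called Dazl and Stra8 with some compounds. Dazl, an RNA-binding regulator of translation that germ cells need, stood at 6257 and 3591 in NC, while DZNep gave 14700 and 6955 and MS023 12119 and 8710. Both groups lay above both NC libraries. The log2 changes were 1.09 (SE 0.44, adjusted p = 0.0882) with DZNep and 1.12 (SE 0.44, adjusted p = 0.238) with MS023. Dazl was higher in replicate 1 than in replicate 2 in all 11 groups. Taken within a replicate number, the DZNep change was 1.23 for number 1 and 0.95 for number 2. That with MS023 was 0.95 and 1.28. Leaving out 1 library sets a single replicate number against the mean of both numbers. The DZNep change was then 1.63 without DZNep replicate 2 and 0.55 without DZNep replicate 1. It was 0.69 without NC replicate 2 and 1.49 without NC replicate 1. With Valproate Dazl was 10926 and 5402, which overlapped the NC values, and its lowest value in any library was 2858, with Chaetocin.

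Ddx4, the germ cell RNA helicase also known as vasa, moved less than 2-fold with every compound. It was 414 and 297 in NC, 593 and 705 with MS023, 201 and 207 with Bromosporine and 205 and 191 with Valproate. The MS023 libraries lay above NC and the other 4 below it. Limma's adjusted p was 0.0355 for MS023 (0.88), 0.0352 for Bromosporine (-0.78) and 0.0167 for Valproate (-0.82). Tex19.1, which restrains retrotransposons and is needed for chromosome pairing in meiosis, was 2185 and 2582 in NC. It was 4901 and 3865 with DZNep, a log2 change of 0.87 (adjusted p = 0.0413) that is short of 2-fold. MS023 (3915 and 4062) and Valproate (3139 and 5020) also lay above both NC libraries, and Bromosporine (1057 and 1417) below, each with an adjusted p over 0.05. Of Tex19.1's 31-base stretches, 6.88% occur in other transcripts, mostly of its neighbour Tex19.2. Tex19.2, named because of that overlap, was 136 and 142 in NC and 650 and 734 with DZNep.

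Stra8, which retinoic acid induces and which starts meiosis, had the widest spread of these genes. NC stood at 1159 and 1067, Bromosporine at 36 and 109, OICR at 59 and 179 and DZNep at 76 and 504. MS023 was the highest group, at 1472 and 4562. In 8 of the 10 compounds both libraries lay below both NC libraries, and with MS023 both lay above. The change with Bromosporine was -4.12 on the log2 scale, yet its SE was 1.33 and limma's adjusted p was 0.0943 in the main fit. That fit ignores the replicate number. With a term for the number, described under the processing, Stra8 was called lower with Bromosporine, DZNep, OICR and Valproate. Taken within a replicate number, the Bromosporine change was -4.97 for number 1 and -3.28 for number 2, and that with DZNep was -3.91 and -1.08. Replicate 2 was higher than replicate 1 with all 10 compounds. The log2 difference, replicate 1 minus replicate 2, had a median of -1.96 over the 11 groups and was 0.12 in NC. Among compound libraries, replicate 1 ranged from 36 to 1472 with a median of 156, and replicate 2 from 109 to 4562 with a median of 738.5. Dmrtb1, a transcription factor of spermatogonia, stayed between 2 and 73.

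**Figure D3:**
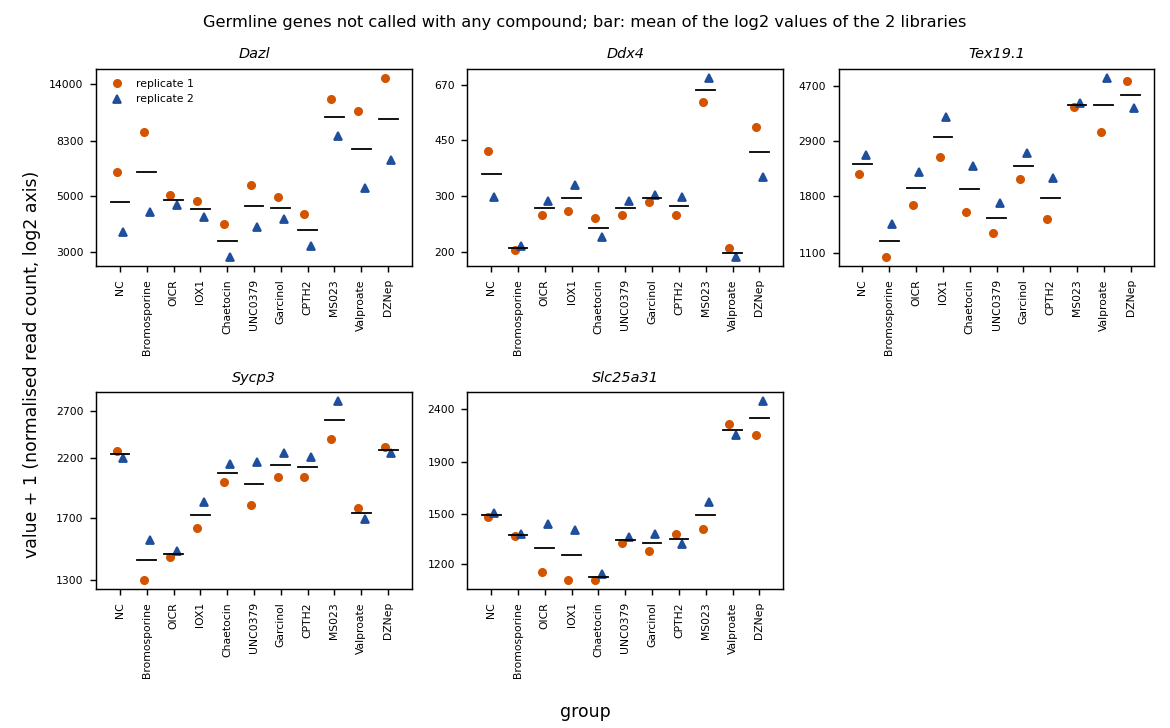
Values (normalised read count plus 1, log2 axis) of 5 germline genes in each library, by group on the x axis. Orange circles are replicate 1, blue triangles replicate 2, and bars the mean of the 2 log2 values, and MS023 holds the highest Ddx4 group mean.

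The 11 genes of the synaptonemal complex and chromosome axis gave 3 calls in 3 genes, each with a different compound. Syce1, a protein of the central element, rose with DZNep, where it was 1469 and 1756 against 509 and 697 in NC. Every one of the 18 remaining libraries lay between 299 and 1078, below both DZNep libraries. Syce1 was higher in replicate 2 in all 11 groups. Within a replicate number its DZNep change was 1.53 for number 1 and 1.33 for number 2. The log2 change was 1.43 (SE 0.33, adjusted p = 0.00649), and without NC replicate 1 it was 1.20 with an adjusted p of 0.0755. Rec8, the meiotic kleisin subunit of cohesin, rose with Valproate to 1794 and 1292, from 730 and 424. No other library exceeded 808. Its log2 change was 1.45 (SE 0.29, adjusted p = 0.00639), and the call was lost without Valproate replicate 1 (1.21, adjusted p = 0.0688) or without NC replicate 2 (1.06, adjusted p = 0.0744).

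Hormad2, a HORMA-domain protein of unsynapsed axes, fell with Bromosporine to 169 and 229, from 419 and 514. These were the lowest values of all, since the 18 remaining libraries ranged from 263 (IOX1) to 768 (DZNep and Valproate). The log2 change was -1.23 (SE 0.20, adjusted p = 0.00368), and the call held without each library in turn. Sycp3, a component of the lateral elements, was 2266 and 2202 in NC, 1295 and 1546 with Bromosporine and 1436 and 1472 with OICR. Both groups lay below NC by less than 2-fold, with log2 changes of -0.66 (adjusted p = 0.00702) and -0.62 (adjusted p = 0.0379). With DZNep Sycp3 was 2308 and 2244, within the range of the other groups.

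Sycp2, the partner of Sycp3 in the lateral element, took only low or only high values. In 8 libraries it lay between 10 and 17, and in 14 between 577 and 1267. Within 6 of the 11 groups the libraries fell on opposite sides, with replicate 2 the low one, as in NC with 675 and 15. Both Bromosporine libraries were low (14 and 16), and both libraries were high with Chaetocin, DZNep, Garcinol and MS023. With such a split no contrast could be judged, and the SE was 2.80 on the log2 scale.

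The remaining axis genes changed little. Sycp1, the transverse filament protein, stayed between 1613 and 2038 in every library, and Tex11, an X-linked gene of crossover formation, between 1617 and 2810. Hormad1 ranged from 2178 to 3434 and Smc1b, a meiotic cohesin subunit, from 1254 to 2409. Stag3, another cohesin subunit, was lowest as a group with MS023 (mean 2553.5) and highest with Valproate (mean 5083). Syce2 of the central element had an adjusted p under 0.05 with DZNep (-0.71, adjusted p = 0.00846) and Valproate (-0.63, adjusted p = 0.0313), opposite in sign to Syce1 with both compounds.

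Among 7 recombination genes, Dmc1 and Zcwpw1 were called, both lower. Dmc1, the meiosis-specific recombinase that pairs DNA strands, fell with DZNep to 41 and 51, from 178 and 183. All 18 remaining libraries lay between 113 and 357. Its log2 change of -1.96 (SE 0.21, adjusted p = 3.44e-05) had the smallest adjusted p of any member, and the call held without each library in turn. With MS023 Dmc1 was the highest, 357 and 335, a log2 change of 0.93 (adjusted p = 0.0354) that is short of 2-fold. Zcwpw1, a reader of methylated histone H3 at recombination sites, fell with Valproate to 357 and 436, from 759 and 1088. The 18 remaining libraries ranged from 553 to 1502. The log2 change was -1.20 (SE 0.26, adjusted p = 0.0105), and without NC replicate 2 it was -0.94 (adjusted p = 0.106) and without Valproate replicate 1 -1.06 (adjusted p = 0.0887). In the annotation Zcwpw1 exons overlap Pilra on the opposite strand.

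Tex15, which germ cells need for recombination and for piRNA-directed silencing, was higher in replicate 1 than in replicate 2 in all 11 groups. NC held 103 and 84, IOX1 442 and 60, and Valproate 671 and 131. Its change with Valproate was 1.66 (SE 1.18, adjusted p = 0.417). Tex15 also has the longest transcript of the members, 8405 bases. The crossover genes Msh4 (40 to 93) and Mlh3 (425 to 1084), and Mei1 (4 to 29), a gene of DNA break formation, were called with no compound. Msh5, the partner of Msh4, was 149 and 73 with Bromosporine against 47 and 25 in NC, both libraries above NC, and no call was made.

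**Figure D4:**
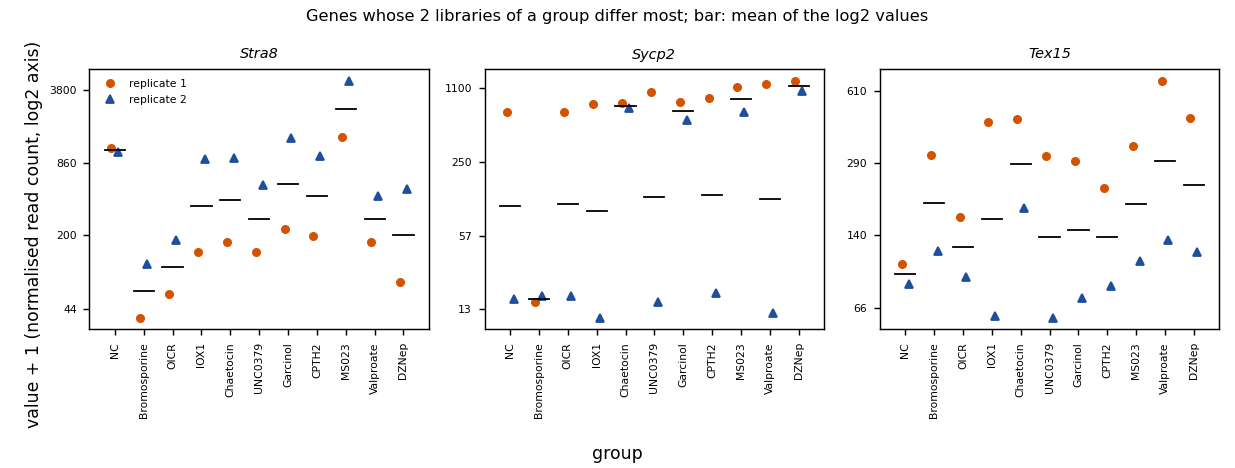
Values (normalised read count plus 1, log2 axis) of Stra8, Sycp2 and Tex15 in each library by group (x axis), with replicate 1 as orange circles, replicate 2 as blue triangles and the mean of the log2 values as bars. Stra8 is higher in replicate 2 with all 10 compounds, Tex15 is higher in replicate 1 in all 11 groups, and Sycp2 lies between 10 and 17 or at 577 and above.

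The replicate number moved with these values. Of the 39 members, 8 were higher in the same replicate number in all 11 groups, 4 in number 1 (Dazl, Smc1b, Msh5 and Tex15) and 4 in number 2 (Dmrtb1, Syce1, Tex11 and Mael). That is 20.5% of the members, where 21% of all genes were so.

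The piRNA pathway held 10 members, of which 6 were called with DZNep, Valproate or Bromosporine (60%, where 15.8% of all genes were). For the other testis genes the share was 66.7%. It was 28.6% for the recombination genes, 27.3% for the axis genes and 0% for the early germ cell and RNA-binding genes. Piwil2, the PIWI protein MILI, rose with DZNep to 701 and 694, from 295 and 264. All 18 remaining libraries were lower, from 140 (Bromosporine) to 623 (MS023). The log2 change was 1.32 (SE 0.18, adjusted p = 0.000185) and the call held without each library in turn. Piwil2 also had an adjusted p under 0.05 short of a 2-fold change with Bromosporine (-0.97, adjusted p = 0.00603), MS023 (0.89, adjusted p = 0.0188) and Valproate (0.70, adjusted p = 0.0221). Mael, a protein of the germ cell nuage needed for transposon silencing, rose with DZNep to 534 and 1143, from 284 and 377. Its DZNep libraries were more than 2-fold apart, though both exceeded the highest of the 18 remaining libraries (436). The log2 change of 1.25 (SE 0.39, adjusted p = 0.0323) was no longer called without DZNep replicate 2 (0.70, adjusted p = 0.255), NC replicate 1 (1.05, adjusted p = 0.205) or NC replicate 2 (1.46, adjusted p = 0.0556). At the other end, Mael was 118 and 164 with Bromosporine, below NC, with a log2 change of -1.23 (adjusted p = 0.0912). IOX1, at 140 and 177, also lay below NC (-1.05, limma's adjusted p = 0.289). The limma fit with a term for the replicate number called Mael lower with Bromosporine and with IOX1.

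Among the Tudor-domain genes, which scaffold PIWI complexes, 3 were called, each with a different compound. Tdrd1 rose with DZNep to 140 and 115, from 43 and 41, and no other library exceeded 70. Its log2 change was 1.57 (SE 0.53, adjusted p = 0.0446), and the call was lost on leaving out any 1 of the 4 libraries (adjusted p of 0.158 without DZNep replicate 1, 0.0842 without DZNep replicate 2, 0.154 without NC replicate 1 and 0.133 without NC replicate 2). Tdrd5 rose with Valproate to 173 and 147, from 45 and 48, above the 33 to 83 of the 18 remaining libraries. Here the log2 change was 1.76 (SE 0.30, adjusted p = 0.00256), and the call held without each library in turn. Tdrd9, which also carries a helicase domain, fell with Bromosporine to 24 and 58, from 195 and 148. The lowest of the 18 remaining libraries was 113. The log2 change was -2.15 (SE 0.35, adjusted p = 0.00341), and the call held without each library in turn.

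Mov10l1, the helicase that feeds precursor RNA into piRNA production, fell with Bromosporine to 242 and 188, from 900 and 540. All 18 remaining libraries lay between 328 (OICR) and 1002 (DZNep), so the groups did not overlap. The log2 change was -1.70 (SE 0.26, adjusted p = 0.00251) and the call held without each library in turn. Asz1, a mitochondrial surface protein of the pathway, was 1291 and 1414 in NC, 2115 and 2380 with DZNep and 1964 and 2178 with Valproate. These groups did not overlap NC and differed from it by less than 2-fold, by 0.73 (adjusted p = 0.00505) and 0.61 (adjusted p = 0.0265). Piwil4, the nuclear PIWI protein MIWI2, ranged from 35 to 214, Tdrkh from 66 to 257 and Stk31 from 1688 to 2723, with no call. In NC Piwil4 was 137 and 110, and it was lower with Bromosporine (35 and 65) and OICR (55 and 63). The log2 changes were -1.34 (limma's adjusted p = 0.0537) and -1.05 (limma's adjusted p = 0.291). MS023, at 127 and 214, was its highest group. For Tdrkh, 39.3% of the 31-base stretches are shared with other transcripts, mostly of Oaz3.

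Over the 10 piRNA genes the median log2 change was 0.51 with DZNep, with 9 positive and 1 negative, and -0.76 with Bromosporine, with 3 positive and 7 negative. For the 11 axis genes the same medians were 0.13 and -0.21, and for the 7 recombination genes -0.07 and 0.19. The 5 early germ cell and RNA-binding genes had medians of 0.87 and -0.96, and the 6 other testis genes 0.78 and -0.76. The roles were not tested against each other.

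The other testis genes held the largest called changes. Brdt, the testis bromodomain protein that binds acetylated histones, rose with Valproate to 450 and 507, from 44 and 44. DZNep was next (99 and 123), and all 18 remaining libraries lay between 9 and 123. The log2 change with Valproate was 3.41 (SE 0.82, adjusted p = 0.0172). The size stayed between 3.33 and 3.50 on leaving out any of the 4 libraries, but limma's adjusted p then rose past the threshold (0.0784 without Valproate replicate 1, 0.0718 without Valproate replicate 2, 0.0882 without NC replicate 1 and 0.0825 without NC replicate 2). Tex101, a surface protein of sperm precursors, was listed at 0 and 7 in NC and at 0 in both Bromosporine libraries, and rose with DZNep to 87 and 80. With Valproate it was 30 and 39, and no other compound library exceeded 13. The fitted log2 change with DZNep was 4.90 (SE 1.18, adjusted p = 0.00866), a size that depends on the pseudocount because 1 NC library is at 0. Without NC replicate 1, the library at 0, it was 3.40 with an adjusted p of 0.120.

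Tex14, which keeps the bridges between germ cells open, fell with 2 compounds. From 1502 and 1574 in NC it went to 531 and 447 with DZNep and to 843 and 518 with Valproate. OICR (989 and 942) and Bromosporine (1035 and 1103) also lay below NC, and the 16 libraries outside NC, DZNep and Valproate reached 1964. The log2 changes were -1.66 (SE 0.18, adjusted p = 3.78e-05) and -1.22 (SE 0.18, adjusted p = 0.000984). Without Valproate replicate 2 the Valproate change was -0.87, short of 2-fold. Taf7l, an X-linked paralogue of a TFIID subunit, fell with Bromosporine to 99 and 77, from 205 and 248. IOX1 and OICR each had 1 library at nearly the same level (98 and 99), and MS023 was the highest group (423 and 639). The log2 change with Bromosporine was -1.36 (SE 0.35, adjusted p = 0.0417), and the call was lost on leaving out any 1 of the 4 libraries (adjusted p of 0.112 without Bromosporine replicate 1, 0.202 without Bromosporine replicate 2, 0.143 without NC replicate 1 and 0.183 without NC replicate 2).

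Slc25a31, an ADP/ATP carrier of the germline, varied little between libraries, and small differences passed the test. It was 1481 and 1509 in NC, 2140 and 2488 with DZNep and 2244 and 2140 with Valproate, log2 changes of 0.63 (adjusted p = 0.00281) and 0.55 (adjusted p = 0.0128). All other libraries lay below both groups. Dpep3, a dipeptidase of the testis, ranged from 17 to 80 with no call.

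**Figure D5:**
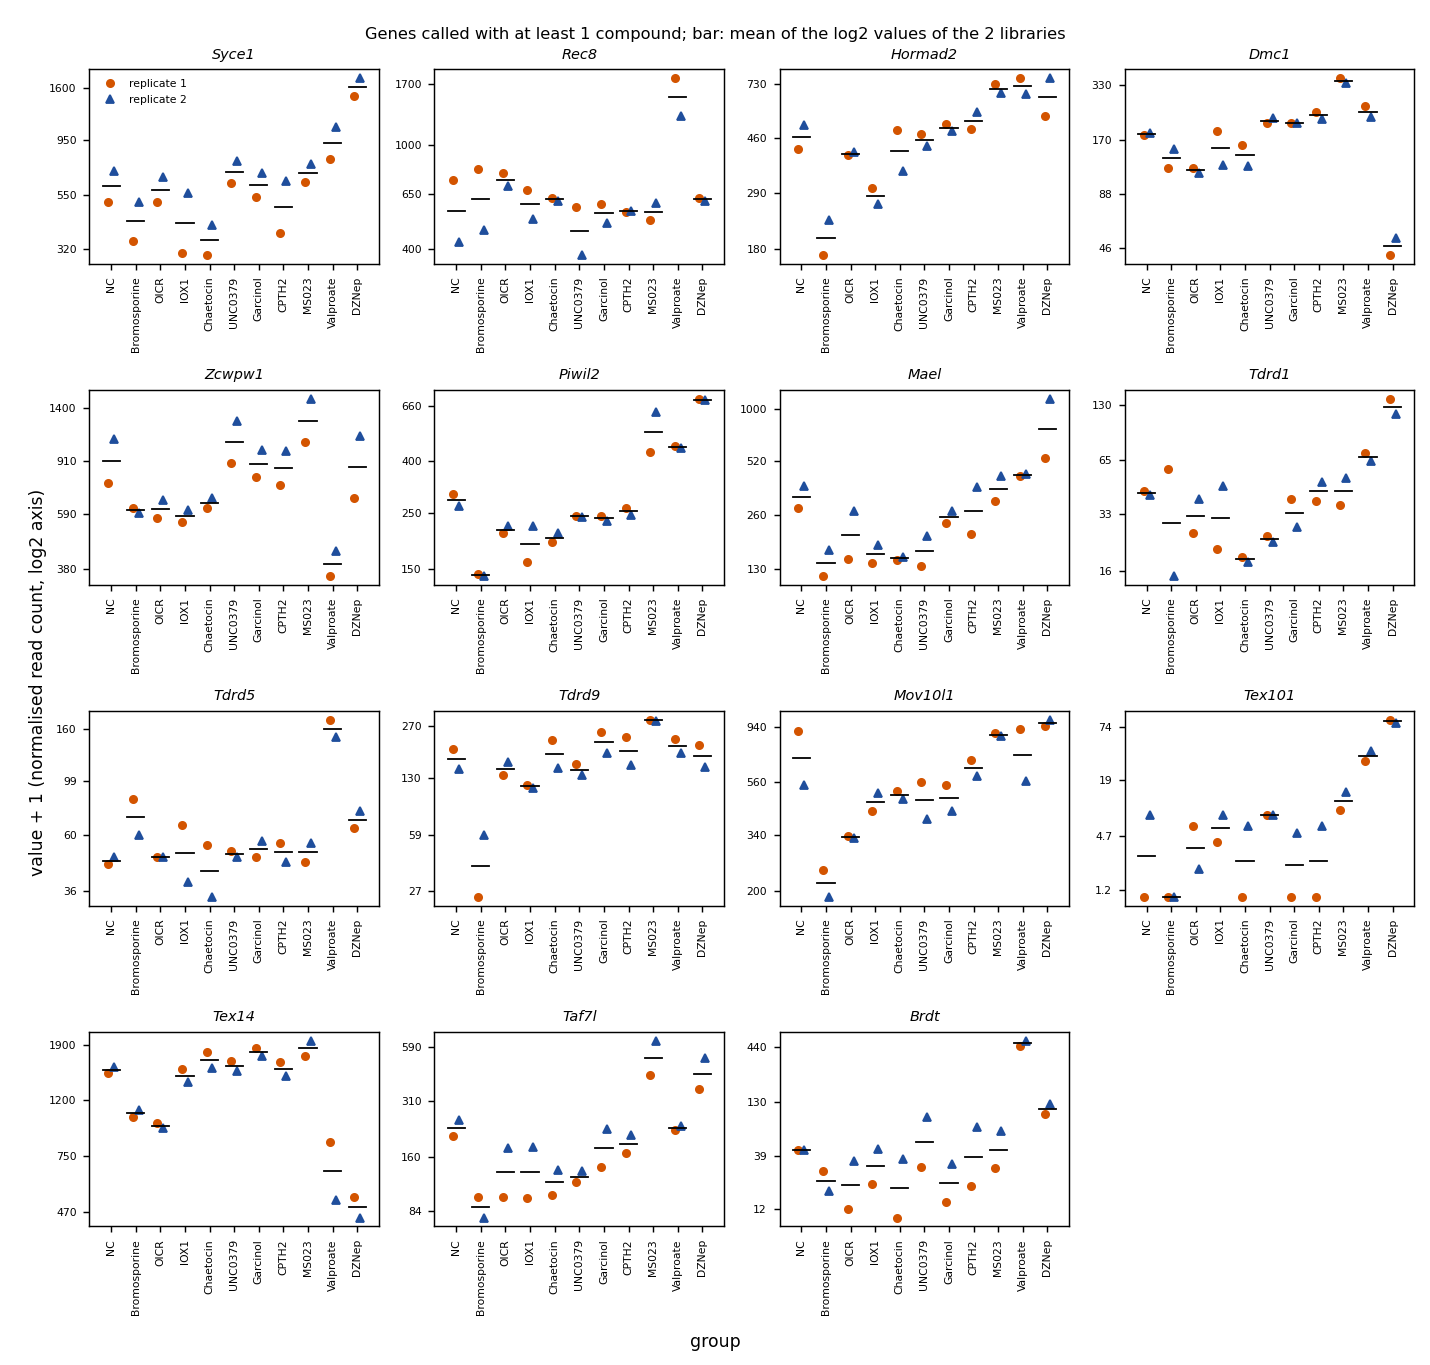
Values (normalised read count plus 1, log2 axis) of the 15 called genes in every library, with groups on the x axis, replicate 1 as orange circles, replicate 2 as blue triangles and the mean of the log2 values as bars. Dmc1 is lowest with DZNep, Brdt and Tdrd5 are highest with Valproate, and Mov10l1, Tdrd9 and Hormad2 are lowest with Bromosporine.

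Whether compounds differed from each other was tested for the members called with either of a pair, in 31 tests over 3 pairs, each adjusted over all genes. Bromosporine and DZNep differed in all 11 members compared, where 14.8% of all genes did. In 9 of these DZNep was higher, and in Dmc1 and Tex14 Bromosporine was. Piwil2 differed most clearly, with means of 141.5 and 697.5 and a log2 difference, Bromosporine minus DZNep, of -2.29 (SE 0.18, adjusted p = 2.05e-06). Bromosporine and Valproate differed in 7 of 9, all higher with Valproate (8.64% of all genes differed in either direction). The exceptions were Zcwpw1 (0.62, SE 0.26, adjusted p = 0.132) and Tex14 (0.69, SE 0.18, adjusted p = 0.0191), the latter short of 2-fold. The members were chosen by their calls against NC, so these counts are not independent of those calls. The shares of all genes, here and for DZNep against Valproate, include genes not so chosen and are not a like baseline.

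DZNep and Valproate differed in 4 of 11 members, with 10.8% of all genes. Dmc1 was lower with DZNep (mean 46) than with Valproate (238.5), by -2.35 (SE 0.21, adjusted p = 1.26e-05). Rec8 (-1.30, adjusted p = 0.00602) and Tdrd5 (-1.21, adjusted p = 0.0109) were lower with DZNep, and Zcwpw1 (1.13, adjusted p = 0.0078) was higher. In the other 7 no difference was called. For Brdt the difference was -2.10 with an SE of 0.82 (adjusted p = 0.0808), for Tex101 1.26 with an SE of 1.18 (adjusted p = 0.497) and for Mael 0.85 with an SE of 0.39 (adjusted p = 0.137). A rise called with only 1 of these compounds was thus not shown to be particular to it for Syce1, Mael, Tdrd1, Tex101 and Brdt. Piwil2 was higher with DZNep than with Valproate by 0.62 (SE 0.18, adjusted p = 0.0209), short of 2-fold.

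The 14 members with an E-box in a promoter and the 22 without one leaned the same way with DZNep and with Bromosporine. With DZNep 12 of 14 and 14 of 22 changes were positive, with medians of 0.26 and 0.15. With Bromosporine 10 of 14 and 15 of 22 were negative, with medians of -0.60 and -0.50. Of the 4 genes that fell with Bromosporine, Tdrd9, Mov10l1 and Taf7l hold an E-box and Hormad2 does not. Of the members with a promoter entry, 2 called with DZNep held one and 4 did not, and 1 called with Valproate held one and 4 did not.

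Related genes outside the 39 gave the following. Of 24 other meiosis genes tested, 2 fell with Bromosporine (Ccdc36 and Cpeb1), 1 with DZNep (Cpeb1) and 2 with Valproate (Ccdc36 and Ccdc155), and Boll rose with Valproate. Ccdc36, a gene of DNA break formation also called Iho1, was 123 and 119 in NC, 57 and 42 with Bromosporine and 213 and 294 with MS023 (1.04, adjusted p = 0.0387). It also fell with OICR, to 52 and 41 (-1.37, adjusted p = 0.0215). Mnd1, a cofactor of strand exchange, fell with MS023 to 312 and 351, from 623 and 927. Of 17 other piRNA genes, Fkbp6, Piwil1 and Henmt1 rose with DZNep and Fkbp6 with MS023. Fkbp6, a co-chaperone of piRNA loading, was 3095 and 3222 in NC and 6707 and 8269 with DZNep (1.24, adjusted p = 0.00396). Henmt1, the piRNA methyltransferase, had no reads listed in either NC library and reached 19 and 53 with DZNep. Of 10 other germline genes, Sohlh2, Rpl10l and D1Pas1 fell with Bromosporine, and Rhox13 rose with DZNep and Valproate. Sohlh2, a germ cell transcription factor, went from 3033 and 2487 to 365 and 427 (-2.80, adjusted p = 0.00114). The 24 meiosis genes had median log2 changes of -0.15 with DZNep, -0.14 with Valproate and -0.06 with Bromosporine. The 39 members had 0.23, 0.21 and -0.50. The members' higher median with DZNep and Valproate was thus not seen in the 24. With MS023 the 24 had 0.20 and the members 0.21. The 17 piRNA genes had 0.14 with DZNep, 0.03 with Valproate and -0.26 with Bromosporine, and the 10 germline genes 0.73, 0.67 and -1.23. None of these lists was tested as a set.

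Genes that regulate the germline programme were mostly not called. Among 15 genes of Polycomb repressive complex 1.6, Hdac2 rose with DZNep, from 5685 and 5871 to 13597 and 10924. Of 9 DNA methylation genes, Dnmt3l, the cofactor of the de novo methyltransferases, rose with DZNep to 1487 and 612, from 9 and 40 (5.56, adjusted p = 0.000797), with Valproate to 442 and 536 and with Bromosporine to 160 and 311. Tet3 fell with DZNep.

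Markers of other cells moved in the same libraries, and their part in the results was not tested. The 10 fibroblast markers summed to 626 and 1496 in NC, 1939 and 2180 with DZNep, 1776 and 1616 with Valproate and 790 and 732 with Bromosporine, with Dcn at 0 in every library. Of the 8 fibroblast markers tested, Col1a1, Thy1 and Pdgfra rose with DZNep and Thy1, Pdgfra and Lum with Valproate. Col1a1 fell with Bromosporine. The 7 markers of 2-cell-like cells summed to 297 and 226 in NC, 9 and 0 with Bromosporine and 25 and 94 with OICR. They summed to 455 and 377 with DZNep and 426 and 931 with Valproate. Of the 6 tested, Zscan4c, Zscan4d and Usp17la fell with Bromosporine and Zscan4d with OICR. With DZNep and Valproate none was called, and the median log2 changes of the 6 were -0.15 and 1.32. Among 8 markers of primordial germ cells, Dppa3 rose with Valproate to 3544 and 2894, from 194 and 160, Dnd1 fell with DZNep and Ifitm3 fell with Bromosporine. Among 4 Sertoli cell markers, Rhox5 rose with DZNep, Valproate and MS023, Amh rose with DZNep, and Dmrt1 fell with DZNep and Bromosporine. Of 4 primitive endoderm markers, Dab2 rose and Gata4 fell with DZNep, and of 2 oocyte markers Ooep fell with DZNep. Among the 10 ESC markers Utf1 rose with Bromosporine, DZNep, OICR and Valproate, and Zfp42 with DZNep.

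A fit of only the 4 libraries of a contrast, with 2 residual degrees of freedom, called none of the 16 changes. All 16 calls therefore rest on the spread estimated over the 11 groups together.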

How the data were processed

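RNA of E14 mouse ESCs was measured in 22 libraries, 2 for each of 10 compounds and NC, grouped by the treatment labels. The deposited values are scores, namely normalised read counts that the authors rounded. Per the labels, reads were processed with bcl2fastq, Bowtie2 2.2.5 and RSEM on mm10. The study's methods name EDASeq full-quantile normalisation. The compounds do not appear in these methods, which were assumed to apply. Such a step hides depth and any change that most genes share. A second deposited table, the authors' group means, matched the means of the first with a largest difference of 0 and was set aside.

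Genes that reached a value of 10 in 2 or more libraries (17275 of 18487) were fitted as log2(value + 1) with 11 group means in limma 3.58.1 (R 4.3.3), with trended moderation and 11 residual degrees of freedom. P-values are two-sided and adjusted by Benjamini-Hochberg within each of 10 contrasts. The fit was tested on simulated data in which every library varied independently. That test therefore did not cover the shared deviations of same-numbered libraries. Because the values are not raw counts, no count test was run.

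The members and lists were chosen with earlier results of these data known. Named genes were each member called with at least 1 compound, plus Dazl, Ddx4, Mael, Stra8, Sycp3, Tex19.1, Spo11, Dmc1, Piwil2, Tdrd1 and Slc25a31, with library values in the text or plots, other members by their range, and of other lists the called genes. Msh5, Asz1, Sycp2, Tex15, Syce2, Stag3 and Tex19.2 were described further after their values were seen. Overlaps and transcript lengths came from GENCODE M21, in which 97.1% of symbols were found, with Python 3.11.15 and matplotlib 3.10.9. Alternatives were another pseudocount (10), no filter, a fit of the 4 libraries of a contrast, a replicate block, median-ratio rescaling, the mean of all other groups as the reference, adjustment over all contrasts and leaving out single libraries.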

Additional observations from a re-analysis of the deposited data

How the results depend on the processing

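Of the 16 called changes, all 16 kept direction and call with a pseudocount of 10, without the filter on low values and with median-ratio rescaling, which moved the median of all genes by at most 0.04. With the other 10 groups as the reference, 15 of the 16 were kept and Tex14 with Valproate lost its call, and members called numbered 8 with Bromosporine and 3 with MS023. With adjustment over all 10 contrasts, 13 were kept (not Mael and Tdrd1 with DZNep, nor Taf7l with Bromosporine) and 1 member was called with OICR. In fits of only the 4 libraries of a contrast, members called were 0 with Bromosporine, DZNep and Valproate, with only 2 residual degrees of freedom. Leaving out single libraries, the members called numbered 3 to 6 with DZNep, 2 to 4 with Valproate, 3 to 5 with Bromosporine and 0 to 1 with MS023. The 3 with DZNep came without NC replicate 1, the 2 with Valproate without Valproate replicate 1, the 3 without Valproate replicate 2, and the 1 with MS023 without MS023 replicate 1. A lone library was assumed to vary like the other groups. With the other 10 groups as the reference, Stra8 turned to 0.35 with CPTH2, 0.22 with Chaetocin and 0.034 with IOX1 on the log2 scale, none called. Of 60 recomputed medians, 55 moved by less than the spread between the replicate numbers, and 2, both with CPTH2 near 0, changed sign.

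Replicate numbers are shared between groups in the labels, which do not say what a number marks. Deviations of same-numbered libraries correlated at 0.0535 to 0.298 (median 0.196) over 55 pairs of groups, and were over 0.1 in 51 of them. Same-numbered libraries thus deviated together in these pairs. Pairing was accepted only where every correlation was over 0.1, which 4 pairs missed, and the fit without the block was kept as the main one. With a replicate block the 16 calls were all kept, and members called numbered 11 with DZNep, 9 with Valproate, 9 with Bromosporine, 3 with OICR, 2 with MS023 and 1 with IOX1. The calls that the replicate block added include Stra8 lower with Bromosporine (adjusted p = 0.000364), DZNep (0.00256), OICR (0.00562) and Valproate (0.0164), and Dazl higher with DZNep (0.00172) and MS023 (0.00851). What the replicate number stands for is not given in the sources used here. The depth of each library is not known here, and the fold changes of low genes such as Tex101 depend on the pseudocount.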

Other observations

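Other genes that respond to retinoic acid were looked at after the values of Stra8 had been seen. Rarb, the retinoic acid receptor beta, was 138 and 105 in NC, while replicate 1 of the compounds ranged from 1 to 53 (median 14) and replicate 2 from 9 to 136 (median 103). Dhrs3, a retinaldehyde reductase, was 154 and 94 in NC, with medians of 40 in replicate 1 and 79.5 in replicate 2. Replicate 1 lay below both NC libraries with all 10 compounds for Rarb and Dhrs3, and with 9 of 10 for Stra8. Replicate 2 was higher than replicate 1 with 10 of 10 compounds for Rarb and with 9 for Dhrs3. These genes were chosen after their values were seen, and no test was made of the pattern. How many of all genes show the same pattern was not counted.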
